A study of Mus musculus with 6 samples.

Results

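The 3 LAR-type receptor phosphatases *Ptprd*, *Ptprf* and *Ptprs*, and 7 genes for their postsynaptic binding partners, were examined in mouse hippocampus with and without the arginine methyltransferase *Prmt9*. The partners were the interleukin-1 receptor accessory gene *Il1rap*, its relatives *Il1rapl1* and *Il1rapl2*, and the leucine-rich repeat genes *Slitrk1*, *Slitrk2*, *Slitrk3* and *Slitrk5*. The 10 genes were taken by symbol from 35944 annotated genes and had 70 of 116710 annotated transcripts. They were selected on their microexon and tandem-acceptor isoform shares in these same WT and KO mice, with their levels also known. The WT and KO differences below are therefore a description of these 10 genes, with no p-value for any of them. Where the fits over all genes are counted, the number of these genes or events among the calls stands beside the share over all features, and nothing is read from it.

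PolyA RNA was sequenced from the hippocampus of 2-week-old female B6J mice, 3 WT and 3 *Prmt9* knockout (KO), which were littermates of the same sex. No drug or other treatment is named for either group, and each library came from 1 animal. The KO was whole-body, made with floxed *Prmt9* and CMV-Cre, so that 1 exon of the gene was deleted in every cell type and the rest of its transcript could still be counted. *Prmt9* itself stood at 11.8, 15.2 and 15.0 TPM (a relative level per transcript length) in WT mice 1 to 3. In KO mice 1 to 3 it stood at 3.93, 4.61 and 4.67 TPM, so that the KO mean was 31.5% of the WT mean.

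LAR phosphatases are cell-surface receptors of the presynaptic terminal, with immunoglobulin and fibronectin domains outside the cell and phosphatase domains inside. They bind ligands on the facing postsynaptic membrane, and the bound pair organizes both sides of the synapse. Very short exons, called microexons, insert a few amino acids into or next to the immunoglobulin domains. In *Ptprd* the inserts known as mini-exon A, in the second immunoglobulin domain, and mini-exon B, between that domain and the next, set which of IL1RAPL1, IL-1RAcP and the SLITRK proteins are bound and how tightly.

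The files gave the level of each annotated transcript. The share of an exon was computed as the TPM of transcripts that hold it, divided by the TPM of those that hold or skip it. Exons held by the same transcript therefore share their values. An annotated internal exon of 3 to 27 bases counted as a microexon, and 10 such exons with a skipping transcript were found, 6 in *Ptprd*, 2 in *Ptprf* and 2 in *Ptprs*. The lengths of all 10 were multiples of 3. The IL1RAP family and *Slitrk* genes had none.

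The first set of sequences shows where the alternative inserts of the *Ptprd* ligand-binding region lie. In the line below, read 5′ to 3′ from the spliced Ptprd-206 transcript (GENCODE M21, GRCm38, reverse strand of chromosome 4), capitals mark the 9-, 18- and 12-base exons and lower case the bases around them.
Ptprd-206, 9-, 18- and 12-base exons: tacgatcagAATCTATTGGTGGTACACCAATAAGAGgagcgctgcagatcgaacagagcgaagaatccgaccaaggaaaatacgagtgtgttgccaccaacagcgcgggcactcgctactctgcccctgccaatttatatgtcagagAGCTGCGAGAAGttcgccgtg
The 9-base exon (chr4:76139294-76139302) and the 18-base exon (chr4:76138556-76138573) adjoin in the transcript, with 0 bases between them, and together make mini-exon A. A further 111 bases separate the 18-base exon from the 12-base exon (chr4:76135545-76135556), which is mini-exon B. In Ptprd-206 the exons begin in codons 181, 184 and 227.

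The second set compares the exons that recur between the phosphatase genes. Capitals again mark the exon and lower case the 12 spliced bases on each side, all on the reverse strand of chromosomes 4 and 17 of GRCm38.
Ptprd 18-base: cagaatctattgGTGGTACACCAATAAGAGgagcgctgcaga
Ptprf 18-base: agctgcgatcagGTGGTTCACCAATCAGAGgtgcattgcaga
Ptprd 12-base near codon 878: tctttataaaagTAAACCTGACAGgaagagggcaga
Ptprs 12-base near codon 877: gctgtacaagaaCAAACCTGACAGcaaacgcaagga
Ptprd 27-base: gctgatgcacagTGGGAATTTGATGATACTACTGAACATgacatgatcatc
Ptprf 27-base: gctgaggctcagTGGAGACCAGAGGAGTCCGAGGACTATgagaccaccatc
Ptprs 27-base: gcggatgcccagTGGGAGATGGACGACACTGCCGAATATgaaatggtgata
The 18-base exons of *Ptprd* and *Ptprf* (chr4:118252076-118252093) were identical at 16 of 18 bases. The 12-base exons of *Ptprd* (chr4:76054589-76054600) and *Ptprs* (chr17:56421833-56421844) were identical at 11 of 12. That pair lies next to the transmembrane segment and is distinct from mini-exon B of *Ptprd*, with which each shared 3 of 12 bases. The 27-base exons were less alike, with 19 of 27 bases identical between *Ptprs* (chr17:56427791-56427817) and *Ptprd* (chr4:76095520-76095546), 14 between *Ptprs* and *Ptprf* (chr4:118227819-118227845), and 13 between *Ptprd* and *Ptprf*.

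The third set shows the tandem acceptors, pairs of 3′ splice sites up to 12 bases apart that add or leave out a few bases at an exon start. Capitals mark the bases between the acceptors, kept in the longer form.
Ptprd, acceptors chr4:76054600 and 76054603: tctttataaaagCAGtaaacctgacag
Ptprd, acceptors chr4:76085558 and 76085561: ctgtggatcaagCAGtgtttgcaaaaa
Il1rapl2, acceptors chrX:138504982 and 138504984: tgaaagttacagAGctttactcacag
In *Ptprd* the extra bases leave the reading frame intact, and the first pair turns the 12-base exon near codon 878 into a 15-base exon. The longer *Il1rapl2* form belongs to a transcript annotated as a retained intron (Il1rapl2-203), not as a protein-coding one.

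The mice numbered 1 stood apart from the other 4 mice. Total estimated counts lay between 194098391 and 249217021 in WT and between 222085851 and 286771677 in KO. Transcripts without any count made up 37.4% in WT mouse 1 and between 22.8% and 24.8% in the other mice. All defining markers of neurons, astrocytes, microglia and oligodendrocytes were above 1 TPM in every mouse, and none of them was called between genotypes (edgeR) or had an unadjusted p below 0.05. The summed TPM of 4 oligodendrocyte markers was 1831 in WT mouse 1 and 936 in KO mouse 1, and between 7034 and 10118 in the other mice. The 4 excitatory neuron markers summed to 1659 and 1742 against 2665 to 2834, of which *Camk2a* made up the largest part (776 and 816 against 1640.3 to 1704), while *Neurod6* overlapped (123 and 148 against 114 to 132). The 5 general neuron markers summed to 2507 and 3375 in the mice numbered 1 against 2419 to 2662. Among them *Tubb3* (704 and 886 against 278 to 325) and *Stmn2* (880 and 1170 against 345 to 393) were higher in the mice numbered 1, and *Snap25* (517 and 781 against 1132 to 1269) was lower. The sum of 3 choroid plexus markers spanned 604 to 7239 in WT mice and 859 to 3315 in KO mice. In whole tissue, fewer cells of a type and less RNA per cell cannot be told apart. Differences between KO and WT are therefore given also within the mice numbered 1 and within the mice numbered 2 and 3 for the 10 genes and their microexons, and the part of tissue composition in them was not tested.

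*Ptprs* was the most abundant of the 10 genes and *Il1rapl2* the least, and no expression difference between the genotypes passed the test for any of them. The WT means descended in the order *Ptprs*, *Ptprd*, *Ptprf*, *Slitrk3*, *Il1rap*, *Slitrk5*, *Slitrk1*, *Slitrk2*, *Il1rapl1* and *Il1rapl2*. Neighbours in this order overlapped between the WT mice, except that *Ptprs* stood above *Ptprd*, *Slitrk5* above *Slitrk1*, and *Slitrk2* above *Il1rapl1*. These 3 orders held in all 6 mice, KO mice included. The limits for a called gene were a fold change over 1.5 with an adjusted p under 0.01 (edgeR), which 0 of the 10 genes and 0 of 20335 tested genes (0%) met. *Prmt9* itself, with a KO mean of 31.5% of the WT mean and no overlap in TPM, was thus not called either. A gene that was not called is therefore not shown to be unchanged. At an unadjusted p below 0.05 (edgeR), 251 of the tested genes were found. DESeq2 called 2 genes, *Gm3373* and *Prmt9*, neither among the 10. The median log2 fold change was 0.05 over the 10 genes and -0.01 over all tested genes.

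**Figure D1:**
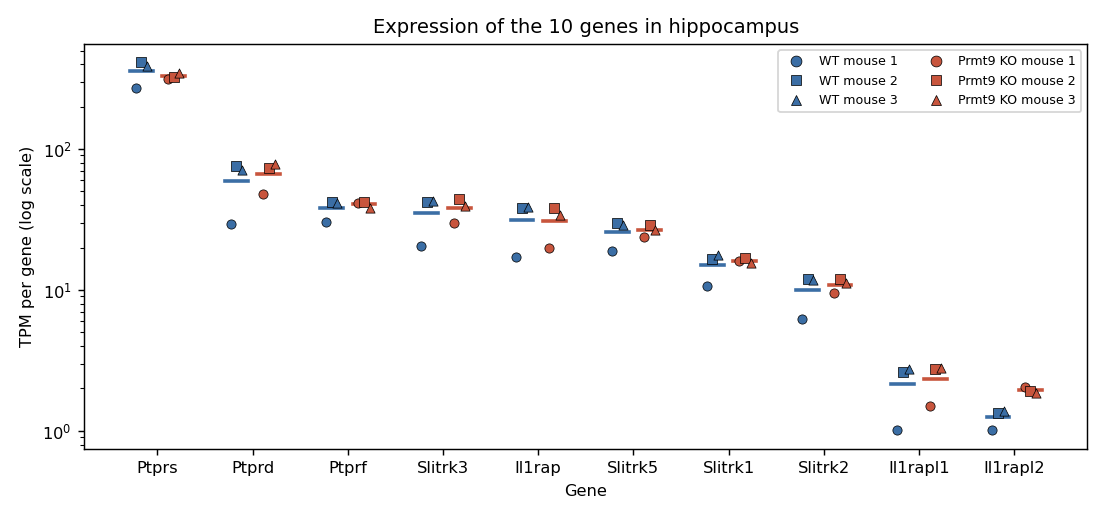
TPM of each gene (log scale) in the 6 mice, with circles, squares and triangles for mice 1, 2 and 3 and a bar for the mean of 3 mice. WT mice are blue and KO mice red. *Il1rapl2* is the only gene whose WT and KO points do not overlap, and mouse 1 of both genotypes lies lowest for *Il1rap* and *Ptprd*.

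*Ptprs* (chr17:56412426-56476483), which encodes the receptor PTPσ that also binds heparan and chondroitin sulfate proteoglycans, had 272, 412 and 390 TPM in the WT mice. In the KO mice it had 314, 327 and 346 TPM, all inside the WT range. In counts scaled to library size, it had 611, 653 and 622 in WT and 618, 555 and 555 in KO. On that scale KO mice 2 and 3 were below every WT mouse, but the genotypes overlapped. The log2 fold change of *Ptprs*, from counts, was -0.13 ± 0.10 (SE), with 0.02 in the mice numbered 1 and -0.20 in those numbered 2 and 3. Only 54.2% of *Ptprs* TPM came from transcripts annotated as protein-coding, the rest from retained-intron and processed forms, so that its protein-coding level in WT was 190.0 ± 30.0 TPM (SD, n = 3). That was still above the 51.4 ± 22.7 TPM of *Ptprd* and 34.6 ± 5.35 TPM of *Ptprf*.

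*Ptprd* (chr4:75941238-78211961), which encodes PTPδ, the receptor for IL1RAPL1, IL-1RAcP and SLITRK3, was measured at 29.6, 76.1 and 71.0 TPM in WT. The KO mice had 47.9, 73.5 and 78.6 TPM. The 2 lowest values were those of the mice numbered 1, and the genotypes overlapped (log2 fold change 0.13 ± 0.23). *Ptprf* (chr4:118208213-118291405), the gene of the LAR receptor itself, had 30.4, 42.3 and 41.5 TPM in WT and 41.6, 42.3 and 38.1 TPM in KO. Its log2 fold change was 0.03 ± 0.12.

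*Il1rapl2* was the 1 gene of the 10 whose genotypes did not overlap. It lies on the X chromosome (chrX:137570608-138846946) and encodes a close relative of IL1RAPL1, the PTPδ ligand. The WT mice had 1.01, 1.35 and 1.39 TPM and the KO mice 2.06, 1.91 and 1.85 TPM, so that every KO mouse was above every WT mouse. The means were 1.25 ± 0.21 and 1.94 ± 0.11 TPM (SD, n = 3). The log2 fold change from counts was 0.51 ± 0.16 (SE), 0.76 in the mice numbered 1 and 0.39 in those numbered 2 and 3. Among all tested genes, 3.85% were higher in every KO mouse in CPM (counts scaled to library size), and 7.01% in CPM and 6.72% in TPM did not overlap in either direction. The gene was measured on 342 to 765 estimated counts per mouse, the fewest of the 10.

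*Il1rapl1* (chrX:86740870-88115645), the X-linked organizer of excitatory synapses that binds the mini-exon A forms of PTPδ, was low in both genotypes. It had 1.01, 2.63 and 2.77 TPM in WT and 1.51, 2.74 and 2.79 TPM in KO, with a log2 fold change of 0.07 ± 0.19. *Il1rap* (chr16:26581704-26730117), whose product serves both as interleukin-1 co-receptor and as a PTPδ ligand, had 17.2, 38.2 and 39.0 TPM in WT and 19.7, 38.3 and 34.0 TPM in KO. Mouse 1 of each genotype had the lowest level, and the log2 fold change was -0.11 ± 0.30.

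The *Slitrk* genes encode postsynaptic LAR phosphatase ligands, of which SLITRK3 is known for inhibitory synapses. *Slitrk3* (chr3:73047265-73057803) had 20.6, 42.4 and 42.6 TPM in WT and 30.1, 44.5 and 39.7 TPM in KO, with a log2 fold change of 0.07 ± 0.21. *Slitrk5* (chr14:111675097-111683141) had 18.9, 29.7 and 28.8 TPM in WT and 23.9, 28.9 and 26.8 TPM in KO. In both genes the lowest value was that of WT mouse 1. *Slitrk1* (chr14:108908800-108914158), which has a single transcript, had 10.6, 16.7 and 17.6 TPM in WT and 16.0, 17 and 15.4 TPM in KO. *Slitrk2* (chrX:66649318-66661393) had 6.26, 11.9 and 11.7 TPM in WT and 9.55, 12 and 11.2 TPM in KO. The log2 fold changes of *Slitrk1*, *Slitrk2* and *Slitrk5* were 0.06 ± 0.13, 0.00 ± 0.11 and 0.01 ± 0.11. All genotypes overlapped.

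The separation of the mice numbered 1 was larger for *Il1rap* and *Ptprd* than the genotype difference of any of the 10 genes. On the log2 CPM scale, 7 of the 10 genes were lower in the mice numbered 1 than in those numbered 2 and 3, led by *Il1rap* (-0.78), *Ptprd* (-0.55), *Slitrk3* (-0.48) and *Il1rapl1* (-0.42). *Ptprf*, *Ptprs* and *Il1rapl2* were higher there, by 0.21, 0.05 and 0.07. In TPM the direction was the other way, with mean differences of -5.06 for *Ptprf*, -75.7 for *Ptprs* and -0.09 for *Il1rapl2*. The genotype difference also varied with the mouse number. The log2 fold changes within the mice numbered 1 and within those numbered 2 and 3 were 0.43 and 0.03 for *Ptprd*, 0.37 and -0.08 for *Slitrk1*, 0.31 and -0.02 for *Slitrk3*, and 0.17 and 0.03 for *Il1rapl1*. They were 0.14 and -0.03 for *Ptprf*, 0.14 and -0.06 for *Slitrk2*, 0.16 and -0.06 for *Slitrk5*, and -0.16 and -0.10 for *Il1rap*. For *Ptprf*, *Slitrk1*, *Slitrk2*, *Slitrk3* and *Slitrk5* the sign thus differed between the 2 sets of mice. The same held for *Ptprs*, with 0.02 and -0.20. Over 19775 genes with a count in every mouse the median of the difference between mice numbered 1 and the others was 0.00, with quartiles of -0.38 and 0.41.

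Among the *Ptprd* transcripts that hold or skip them, mini-exons A and B were included in most of the TPM. Their inclusion differed more between the mice numbered 1 and the others than between the genotypes. These transcripts had 8.28 to 38.3 TPM per mouse, against 29.6 to 78.6 TPM for the gene. Ptprd-204, the most abundant *Ptprd* transcript, neither holds nor skips these exons and is outside the shares. The 9-base exon was held by 66.2%, 71.4% and 70.2% of the TPM of these transcripts in the WT mice and by 54.7%, 64.4% and 67.9% in the KO mice. The means were 69.3% ± 2.7 and 62.4% ± 6.9 (SD, n = 3), with KO mouse 3 inside the WT range. The 18-base exon was held by 88.7%, 62.3% and 63.6% in WT and by 90.0%, 69.2% and 66.9% in KO. For mini-exon B, the 12-base exon near codon 227, the shares were 88.7%, 68.3% and 71.1% in WT and 90.8%, 74.0% and 71.3% in KO. Both exons were thus between 88.7% and 90.8% in the mice numbered 1 and between 62.3% and 74.0% in the other 4 mice, and the genotypes overlapped. Averaged over both genotypes, the mice numbered 1 differed from the others by 23.9 percentage points for the 18-base exon, 18.5 points for mini-exon B and -8.06 points for the 9-base exon. Within each pair of mice of the same number, the KO mouse was lower for the 9-base exon and higher for the 18-base exon and mini-exon B. The labels do not pair WT and KO mice by number, so these pairs only describe the values. The difference for the 9-base exon was -11.5 points in the mice numbered 1 and -4.62 points in the others. For the 18-base exon it was 1.39 and 5.04 points, and for mini-exon B 2.16 and 2.97 points.

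The annotated transcripts that span all 3 positions hold these exons in 5 combinations, and the shares below are of the TPM of those transcripts. All 3 exons together made up 59.5%, 40.8% and 42.3% of the TPM in WT and 51.0%, 41.7% and 43.0% in KO. The form with the 18- and 12-base exons but without the 9-base exon (Ptprd-217) made up 29.2%, 21.5% and 21.4% in WT and 39.0%, 27.5% and 23.8% in KO. It was higher in each KO mouse than in the WT mouse of the same number, a match that the labels do not give. The difference was 9.82 points in the mice numbered 1 and 4.23 points on average in the others, but the groups overlapped. The form with the 9-base exon alone (Ptprd-201) made up 6.73%, 24.6% and 20.4% in WT and 2.90%, 17.9% and 20.4% in KO. Its low share was seen in both mice numbered 1. Transcripts with none of the 3 made up 4.61% to 8.41%, and the form with the 9- and 12-base exons (Ptprd-219) 0% to 7.5%.

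**Figure D2:**
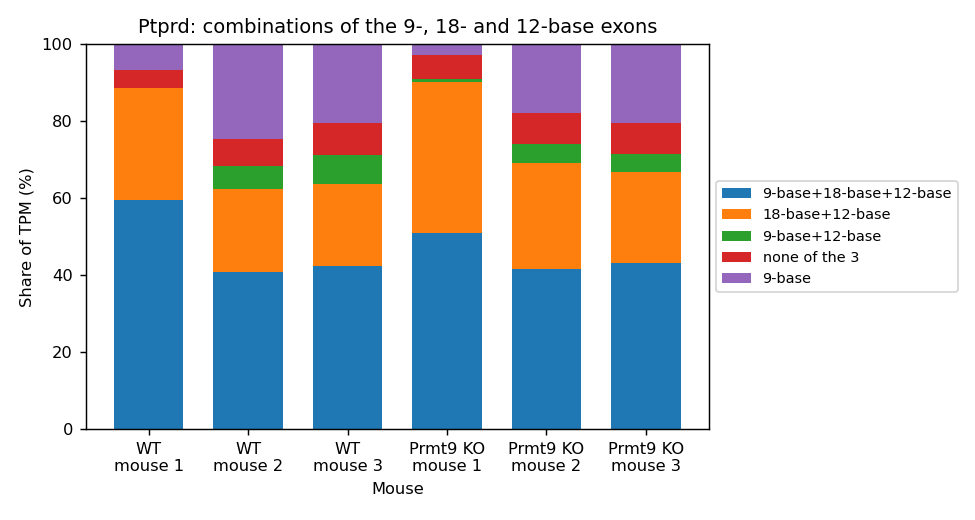
Share of *Ptprd* TPM (%) in each combination of the 9-, 18- and 12-base exons, 1 stacked bar per mouse, over transcripts that span all 3 positions. Mouse 1 of both genotypes has the largest share with all 3 exons in its genotype and little of the form with the 9-base exon alone.

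Of the 10 microexons, 2 did not overlap between the genotypes, both in *Ptprd*. Among 567 microexons of all genes with mean inclusion between 0.05 and 0.95 in a genotype, 9.7% did not overlap. Of the 10, the *Ptprd* 15-base exon lay outside those limits. The 12-base exon near codon 878 was held by 10.2%, 14.3% and 14.2% of the TPM in WT and by 15.9%, 17.3% and 15.5% in KO. Every KO mouse was higher, with means of 12.9% ± 2.3 and 16.2% ± 0.94 (SD, n = 3). The difference of KO from WT was 5.70 points in the mice numbered 1 and 2.19 points in those numbered 2 and 3. The 27-base exon, which begins in codon 775, was held by 20.5%, 18% and 18.2% in WT and by 16.8%, 17.1% and 17.4% in KO. Every KO mouse was lower, with a difference of -3.71 points in the mice numbered 1 and -0.80 points in the others.

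These shares restate the levels of single transcripts. The 27-base exon occurs only in Ptprd-206, whose share of all *Ptprd* TPM was 16.6%, 14.8% and 15.0% in WT and 13.7%, 13.7% and 13.9% in KO. The 12-base exon near codon 878 rests mainly on Ptprd-217, with 8.18%, 10.8% and 10.9% in WT and 11.3%, 12.8% and 11.2% in KO. Ptprd-206 and Ptprd-217 also differ at the 9-base exon, so that the 3 exons are not separate measurements. In all, 43 transcripts of these genes had a mean of at least 1 TPM and a further transcript to share the gene with. Of these, 4 did not overlap, against 9.12% of 44147 transcripts of all genes. The other 2 were transcripts without a coding sequence, Ptprd-205 (8.89%, 8.61% and 7.66% in WT against 10.5%, 10.2% and 9.19% in KO) and Ptprf-202 (2.40% to 2.71% against 2.79% to 3.83%).

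The paralogous microexons were included to very different extents, in the same order in every mouse. All these shares are of the TPM of transcripts that hold or skip the exon, not of the whole gene. In *Ptprs* the 12-base exon next to the transmembrane segment had 85.0%, 87.2% and 88.6% in WT and 86.8%, 87.7% and 87.5% in KO. The nearly identical *Ptprd* exon did not exceed 17.3% in any mouse. The 18-base exon of *Ptprf*, annotated in the partial transcript Ptprf-207, was held by 15.3%, 35.1% and 31.2% in WT and by 21.7%, 34.5% and 29.3% in KO. The *Ptprd* exon of the same length was never below 62.3%. In contrast to the *Ptprd* exon, which was highest in the mice numbered 1, the *Ptprf* exon was lowest there. In *Ptprf* the share of the 27-base exon was 44.8%, 45.7% and 43.6% in WT and 49.6%, 45.5% and 42.9% in KO. In *Ptprs* its share was 5.57%, 5.72% and 5.15% in WT and 4.07%, 4.45% and 5.31% in KO. It thus followed the order *Ptprf*, *Ptprd*, *Ptprs* in all 6 mice, while the *Ptprf* and *Ptprs* exons overlapped between genotypes. In each gene the 27-base exon is held by 1 transcript, which is Ptprf-206, Ptprd-206 or Ptprs-220. Ptprs-220 has only 7 exons and 1344 bases, and 7 other *Ptprs* transcripts skip the exon. The order therefore depends on which annotated transcripts hold the exon. The difference of KO from WT in the mice numbered 1 and in the others was 6.40 and -1.32 points for the *Ptprf* 18-base exon and 4.76 and -0.43 points for its 27-base exon. For *Ptprs* it was 1.78 and -0.32 points for the 12-base exon and -1.51 and -0.55 points for the 27-base exon.

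**Figure D3:**
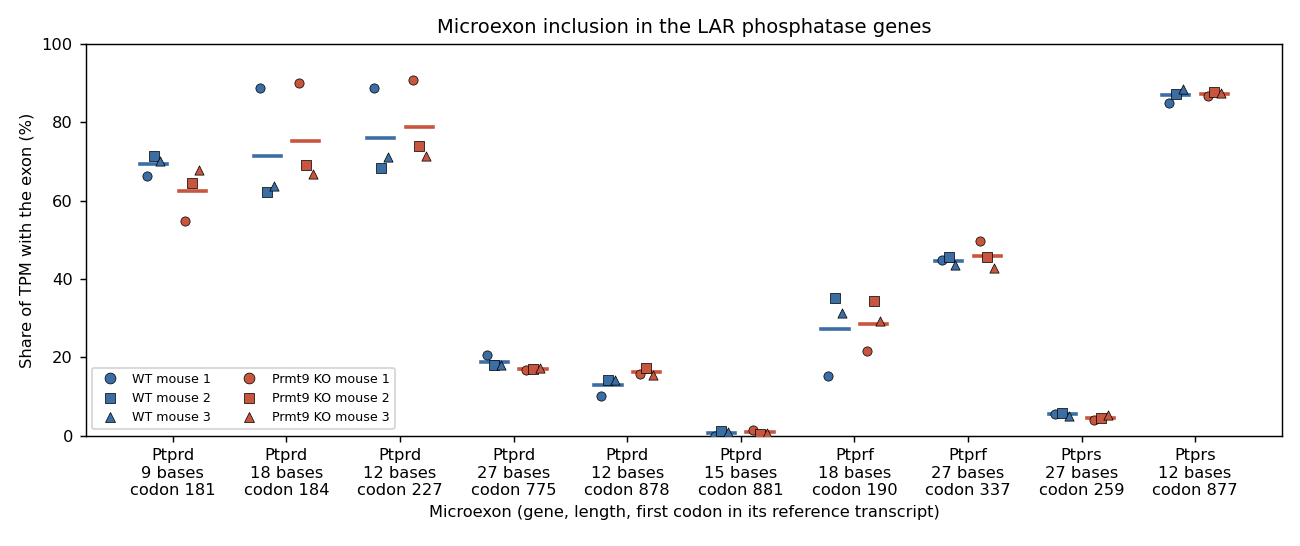
Share of TPM (%) with each of the 10 microexons in the 6 mice, with circles, squares and triangles for mice 1, 2 and 3, WT in blue and KO in red, and a bar for the mean of 3 mice. Exons are named by gene, length and the codon in which they begin. The *Ptprs* 12-base exon lies between 85.0% and 88.6%, and the 18- and 12-base exons near codons 184 and 227 of *Ptprd* are highest in mouse 1 of both genotypes.

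The 27-base exons were the longest that met the size limit, and the 33-base exon of *Ptprf* (chr4:118218012-118218044) lay just beyond it. That exon is held by Ptprf-206, which also holds the 27-base exon, and by Ptprf-203. Its shares were 46.4%, 49.0% and 47.2% in WT and 51.3%, 48.4% and 46.7% in KO, close to those of the 27-base exon and likewise overlapping.

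Of the 3 tandem acceptors, 1 did not overlap between genotypes, against 9.99% of 1371 tandem acceptors of all genes. Those 1371 had mean inclusion between 0.05 and 0.95 in a genotype, and the *Ptprd* pair near codon 878 lay outside these limits. In *Il1rapl2* the longer form made up 18.8%, 24.6% and 19.9% of the TPM in WT and 9.48%, 10.7% and 8.66% in KO. The means were 21.1% ± 3.1 and 9.62% ± 1.0 (SD, n = 3), with a difference of -9.29 points in the mice numbered 1 and -12.5 points in the others. The lower share came with a higher level of the protein-coding transcripts, which stood at 0.82, 1.02 and 1.11 TPM in WT and 1.87, 1.71 and 1.69 TPM in KO. The retained-intron transcript itself stood at 0.19, 0.33 and 0.28 TPM in WT and 0.20, 0.20 and 0.16 TPM in KO. This share and the gene level above draw on the same transcripts and are not separate measurements. For the *Ptprd* acceptors near codon 878, the longer form made up 0%, 6.62% and 5.04% in WT and 7.45%, 2.31% and 3.13% in KO. The 15-base exon it creates was held by at most 1.5% of the TPM in any mouse, with a difference of 1.5 points in the mice numbered 1 and -0.48 points in the others. At the other *Ptprd* pair the longer form made up 8.91%, 7.76% and 9.22% in WT and 8.18%, 9.69% and 9.60% in KO. Both *Ptprd* acceptor pairs overlapped.

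A longer-spaced *Ptprd* acceptor outside these limits, chosen after its values were seen, also did not overlap. Its sites are 122 bases apart at chr4:76100630 and 76100752, and the shorter form occurs in Ptprd-212. The longer form made up 90.9%, 92.5% and 92.4% in WT and 96.1%, 95.2% and 96.5% in KO, higher in every KO mouse. The shorter form was low, at 0.53, 1.14 and 1.12 TPM in WT and 0.30, 0.65 and 0.51 TPM in KO. These TPM values overlapped between genotypes. Of the 25 tested events of these genes 4 did not overlap, against 11.4% of 15283 exon-skipping and alternative-acceptor events of all genes. Each tested event had mean inclusion between 0.05 and 0.95 in a genotype and 1 TPM or more per mouse.

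None of these events passed the test over all genes. The limits for a called event were a difference in inclusion of 0.05 or more with an adjusted p up to 0.01 (limma), which 0 of the 25 tested events of these genes and 0 of 15283 events in all (0%) met. An unadjusted p below 0.05 was found for 556 of all events. With the same limits on junction reads, the paper reported altered splicing events in many genes of these hippocampi. Junction reads were not analysed here, so an event that was not called is not shown to be unchanged. For the relative use of transcripts (edgeR), 22 of 13561 genes (0.162%) passed an adjusted p of 0.01, and none of the 9 genes with more than 1 transcript was among them. Without WT mouse 2 the count among these genes became 1, which was *Ptprf*. An unadjusted p below 0.05 was found for 227 of all genes.

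*Il1rap* was expressed mainly as 3 membrane forms that differ in the part of the protein inside the cell. The transcripts fall into 4 classes by the position where the coding sequence ends. The 685-codon form (Il1rap-202, coding end chr16:26723068), the brain form of the accessory protein, made up 45.5%, 37.0% and 35.8% of protein-coding TPM in WT and 48.0%, 37.9% and 36.8% in KO. The 570-codon form (Il1rap-201, chr16:26715068), the accessory protein of interleukin-1 signalling in most tissues, made up 31.9%, 35.5% and 33.8% in WT and 25.3%, 28.0% and 37.5% in KO. A 640-codon form (Il1rap-203, chr16:26723222) made up 20.9%, 25.2% and 28.4% in WT and 24.9%, 32.6% and 23.7% in KO. The shortest form, of 360 codons (Il1rap-206, chr16:26701268), lacks the membrane-spanning part and made up 2.01% ± 0.24 in WT and 1.80% ± 0.28 in KO (SD, n = 3). All 4 shares overlapped, and the brain form was highest in the mice numbered 1.

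**Figure D4:**
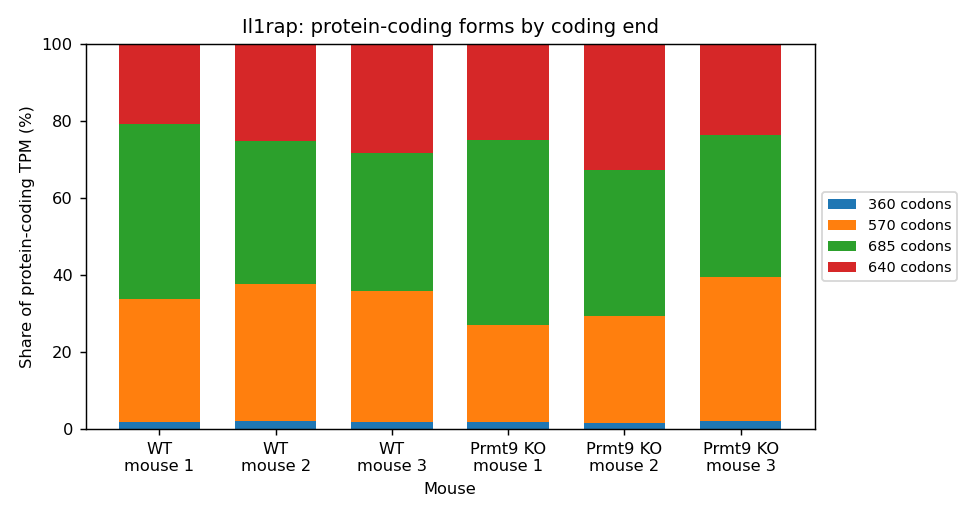
Share of protein-coding *Il1rap* TPM (%) by coding length, 1 stacked bar per mouse. The 685-codon brain form takes 35.8% to 48.0% and the 360-codon form about 2.01% in WT and 1.80% in KO.

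The shares of the other transcripts of these genes with a mean of at least 1 TPM overlapped between genotypes. Ptprd-204, a shorter protein-coding transcript and the most abundant of *Ptprd*, had 15.5, 22.5 and 21.2 TPM in WT and 24.7, 23.2 and 24.7 TPM in KO. It was the 1 transcript of the 44 whose TPM did not overlap, against 7.01% of 46272 transcripts of all genes. It made up 52.3% and 51.5% of *Ptprd* TPM in WT and KO mouse 1 and 29.6% to 31.6% in the other mice, so it too followed the mouse number. *Ptprs* was led by Ptprs-202, at 37.6% to 45.4% of the gene's TPM. Slitrk2-201 made up 54.8%, 76.2% and 77.2% of *Slitrk2* in WT and 70.9%, 78.1% and 79.2% in KO, and Slitrk3-202 made up 51.0% to 60.2% of *Slitrk3*. The pairs of transcripts of *Slitrk2* and of *Slitrk3* have the same coding length, so these shares concern the ends outside the coding sequence. Il1rapl1-203 made up 79.4%, 50.9% and 40.6% of *Il1rapl1* in WT and 66.7%, 47.3% and 44.0% in KO, and was highest in the mice numbered 1.

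The wider network of these receptors was read from 5 lists with 72 genes in all, each tested in the fit over all genes. None of the 72 was called higher or lower by edgeR, none had an unadjusted p below 0.05, and DESeq2 called 0. The lowest adjusted p was 0.9999 (edgeR), and the log2 fold changes ran from -0.29 (*Sigirr*) to 0.37 (*Slitrk6*). Their median was -0.01, as over all tested genes. Since this edgeR fit did not call *Prmt9* either, the 72 are not shown to be unchanged.

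Among 19 other extracellular ligands of LAR phosphatases, the highest means over the 6 mice were those of the proteoglycan genes *Bcan*, *Sdc3*, *Agrn* and *Ncan*. *Bcan*, which encodes brevican of the extracellular matrix, had 374 ± 66 TPM in WT and 362 ± 73 TPM in KO (SD, n = 3). *Sdc3*, a cell-surface heparan sulfate proteoglycan, had 116 ± 15 and 127 ± 46 TPM, and *Agrn* (agrin) 119 ± 7.3 and 116 ± 11 TPM. *Ncan* (neurocan) had 109 ± 17 and 111 ± 37 TPM. *Sdc3* and *Ncan* were highest in the mice numbered 1 of both genotypes. In the other 4 mice *Lrrc4b*, a ligand gene named after its values were seen, was above *Ncan* (100.5 to 116 against 86.1 to 102 TPM).

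Of 16 intracellular partners, *Ctnnb1* (β-catenin) had 441 ± 51 TPM in WT and 481 ± 78 in KO (SD, n = 3), and the exchange factor *Trio* 157 ± 57 and 161 ± 43 TPM. *Caskin1*, a scaffold that binds LAR phosphatases, had 124 ± 29 and 127 ± 13 TPM, and the active zone gene *Erc2* 78.0 ± 18 and 80.5 ± 8.7 TPM. Of 11 IL-1 receptor family genes and partners of IL1RAPL1, the scaffold *Dlg4* (PSD-95) had 480 ± 95 and 457 ± 62 TPM. *Mcf2l* and *Arhgap22*, whose products bind IL1RAPL1, had 154 ± 42 and 155 ± 27, and 6.57 ± 0.48 and 6.38 ± 0.58 TPM. The calcium sensor *Ncs1* had 114 ± 39 and 116 ± 32 TPM. The interleukin receptors *Il1rl1*, *Il1rl2* and *Il18r1* were below 1 TPM in every mouse.

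Of 15 other receptor-type tyrosine phosphatases, *Ptprn* and *Ptprn2*, of secretory vesicles, had 343 ± 97 and 339 ± 42 TPM, and 131 ± 46 and 138 ± 17 TPM, in WT and KO (SD, n = 3). *Ptpra* had 152 ± 18 and 155 ± 5.3 TPM, and *Ptprz1*, of glial cells, 93.0 ± 8.6 and 103 ± 5.7 TPM. Of 11 regulators of neuronal microexons, *Srsf11* had 178 ± 50 and 187 ± 28 TPM and *Rnps1* 151 ± 6.8 and 158 ± 17 TPM. The RNA-binding splicing factors *Rbfox1* and *Rbfox3* had 162 ± 62 and 157 ± 39 TPM, and 148 ± 35 and 140 ± 17 TPM. All of the partner genes named with values overlapped between the genotypes.

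**Figure D5:**
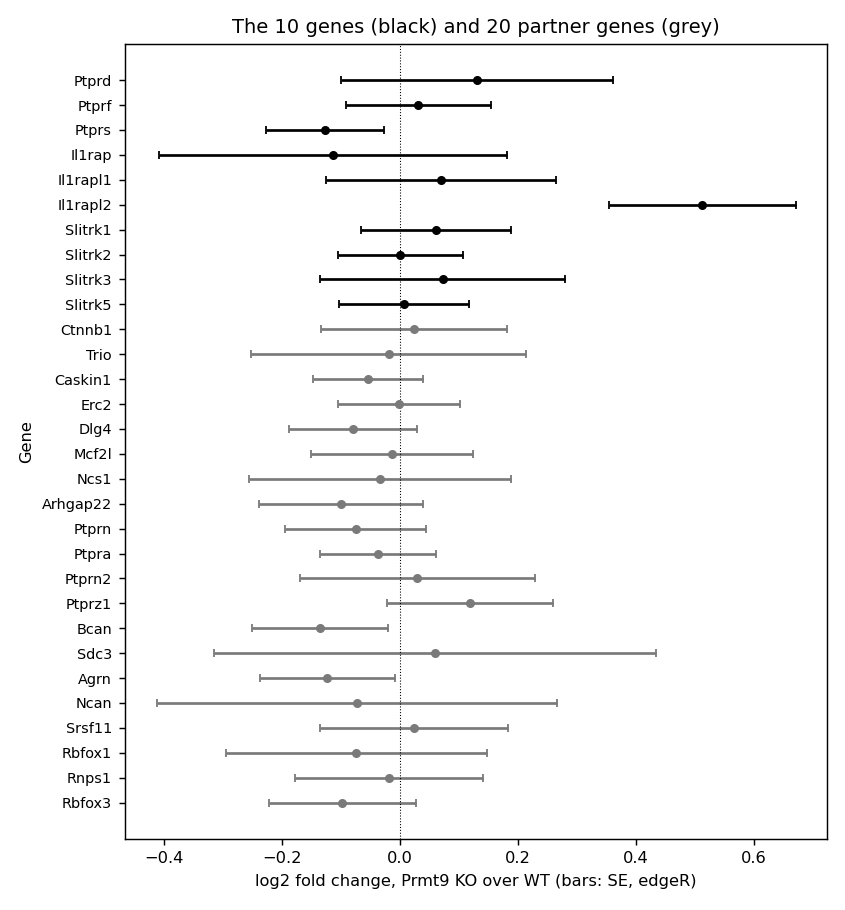
Log2 fold change of KO over WT (x axis) with its SE from edgeR, over 3 mice a group, for the 10 genes (black) and the 4 most abundant genes of each of 5 partner lists (grey). *Il1rapl2* lies farthest from 0, at 0.51, and the partner genes shown lie between -0.14 and 0.12.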

How the data were processed

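PolyA RNA of 6 hippocampi (3 WT, 3 *Prmt9* KO) was sequenced by the authors as stranded paired-end libraries. The deposited files hold kallisto estimated counts and TPM per transcript, which the authors computed, and a table of TPM per gene. The submitters' processing notes name kallisto 0.46.0 and STAR 2.7.1a on GRCm38/mm10, while the study's methods give another kallisto version. kallisto spreads reads among similar transcripts, so the share of a short exon depends on the annotated transcripts. Reads on exon junctions were not analysed here.

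Transcripts were matched to GENCODE M21, with 116710 of 118783 matched. Expected (estimated) counts were summed per gene, rounded and tested with edgeR 4.0.16 (quasi-likelihood, TMM, filterByExpr; R 4.3.3). Transcript use was tested with diffSpliceDGE, and inclusion with limma 3.58.1 on log2 ratios of TPM after adding 0.1 TPM. Thresholds were taken from the study's methods. Benjamini-Hochberg adjustment covered all features. DESeq2 1.42.0 served as an alternative. The scripts were tested on simulated data with known changes. Figures used matplotlib 3.10.9.

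The 10 genes and all lists were chosen with earlier results of these data known. Named were all 10 genes, their microexons and tandem acceptors with at least 1 TPM in every mouse, transcripts with a mean of at least 1 TPM, and the 4 most abundant genes of each partner list. Total counts ranged from 194098391 to 286771677 per mouse, and the counts of the 10 genes from 342 to 160427. Deviations of same-numbered WT and KO mice from their group means correlated at 0.81, 0.74 and 0.70, all above 0.1. A pairing by number was run as an alternative, while the main fits used no pairing. With mouse 1 apart in both genotypes, mice 2 and 3 deviate the other way from a mean of 3. Correlations are then high for any match of mice 2 and 3, so this check could not test the pairing. WT mouse 2 with KO mouse 3 gave 0.67 and WT mouse 3 with KO mouse 2 gave 0.76, so numbers 2 and 3 were not told apart. The pairing comes from these data, and the labels give no litter.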

Additional observations from a re-analysis of the deposited data

How the results depend on the processing

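The count of genes called for expression was 0 and became 2 with DESeq2, 1 with a term that set the mice numbered 1 apart, and 1 with only the mice numbered 2 and 3 (chosen after seeing the data). The 22 genes called for transcript use became 1 with at least 10 counts in every mouse, 12 with a gene-level F test, 52 with that batch term and 230 with only the mice numbered 2 and 3. With the replicate block (pairing by mouse number) they became 12, and the block changed no other call. Leaving out 1 mouse gave 6 (without KO mouse 3) to 139 (without WT mouse 1). Among the 10 genes it gave 0 to 1, the 1 being *Ptprf* without WT mouse 2. No event and no partner gene was called under any alternative run. The cause of these shifts was not tested.

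The *Il1rapl2* log2 fold change stayed between 0.39 and 0.61. The *Slitrk2* value of 0.00 became 0.16 and 0.18 on log2(TPM + 1) and log2(TPM + 0.1). The KO minus WT share of the *Ptprd* 12-base exon near codon 878 went from 3.36 to 1.61 points with estimated counts, and that of the 27-base exon ranged from -2.28 to -0.80. Leaving out 1 mouse, the 9-base exon ranged from -9.70 to -3.08 points (without KO mouse 1), the 18-base exon from -3.52 (without KO mouse 1) to 12.4 (without WT mouse 1) and mini-exon B from -3.34 to 9.01 (without the same mice). Without WT mouse 2 the latter 2 were -0.80 and -1.17 points, and the 18-base exon was -0.12 points without WT mouse 3. Over all transcripts of the gene, mini-exon B was -0.42 points. With only mice 2 and 3, the *Ptprd* 15-base exon and its tandem acceptor moved from 0.18 to -0.48 and from 0.41 to -3.11 points. The *Ptprs* 12-base exon moved from 0.38 to 2.41 points over all transcripts of the gene, and its 27-base exon from -0.87 to -0.22 points with estimated counts.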
